A study of Mus musculus with 8 samples.

Results

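The laminin chains are the subunits of the laminins, the proteins that form the basement membrane around muscle fibres, vessels and nerves. The 9 genes Lama1, Lama2, Lama3, Lama4, Lama5, Lamb1, Lamb2, Lamb3 and Lamc1 were taken by name from the platform annotation, which placed 14 probe sets under exactly 1 of these symbols, out of 12393 genes named in this way on the array. Of the 9 genes, 4 had more than 1 probe set and 5 had a single one.

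RNA was measured in diaphragm, the main muscle of breathing, of mice 8 weeks old. The dystrophic group came from dy/dy mice, whose muscular dystrophy is laminin-deficient per the series' title, and the normal group from their control mice. The labels give no strain background, no sex and no genotype for the controls beyond that. Each group had 4 Affymetrix arrays, and each array carried muscle pooled from 3 mice, 12 mice per group, so the pool is the replicate and the spread between single mice is not seen.

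A laminin is made of 1 α, 1 β and 1 γ chain, and the α chain largely sets which receptors it binds. The fibre surface of adult muscle carries mainly the laminin of α2, β1 and γ1. Its α2 chain binds dystroglycan and the integrin of α7 and β1, which link the basement membrane to the fibre. The α4 chain, short at its amino-terminal end, and the α5 chain are prominent in vessels, at the neuromuscular junction and in developing muscle. The question put to the data was whether the transcript of any other chain was higher in dystrophic diaphragm, where that of Lama2 was lower.

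Signals are MAS5 intensities rescaled to a common trimmed mean. The median over all probe sets lay between 184 and 207 in dystrophic pools and between 172 and 193 in normal pools. The negative controls of the TrpnX type, probes for a bacterial transcript, read between 0.78 and 32.2. Differences are dystrophic minus normal on the log2(signal + 16) scale, which understates the change of dim genes, and a probe set is called where the limma adjusted p is under 0.05. The 12 listed markers of skeletal muscle fibres were all bright enough to be tested, with summed signals of 182606 to 208575 in dystrophic pools, against 283269 in normal replicate 4 and 183172 to 222399 in the other normal pools. Normal replicate 4 also had the highest 3′ to 5′ signal ratios, a sign of RNA integrity, at 0.937 for Gapdh and 1.07 for actin, where the other 7 arrays lay at 0.729 to 0.861 and at 0.833 to 0.971. Dystrophic replicate 3 stood apart in the 10 hepatocyte markers on the array, whose summed signal was 61359.9 there, 2049 to 7213 in the other dystrophic pools and 1490 to 4111 in normal pools. The laminin differences are therefore also given without it, and both arrays were left out together in a further fit.

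Lama2, which encodes the α2 chain, was the one laminin gene that passed the test, and it fell. Its signal was 333, 239.7, 275 and 232 in dystrophic replicates 1 to 4, against 793, 982, 859 and 749 in normal replicates 1 to 4. Every dystrophic pool lay below every normal pool, and every dystrophic pool also lay above the highest negative control, so a transcript signal was still present. The mean was 270.0 ± 46.1 in dystrophic and 846 ± 101 in normal pools (SD, n = 4 each), a ratio of 0.319. The log2 difference was -1.60 (SE 0.15, 95% interval -1.93 to -1.26, limma adjusted p = 8.91e-04), and an exact two-sided permutation test over the arrays gave p = 0.0286, the smallest that 4 against 4 allows. Among all probe sets tested, 0.0368% were called lower and 0.457% higher, and 2.53% were lower in every dystrophic pool than in any normal pool. Lama2 kept its call without dystrophic replicate 3, at -1.61 (limma adjusted p = 0.00597).

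The single Lama2 probe set is not placed relative to the dy mutation in the sources used here, so it measures transcript level at its own site only. In bulk muscle, fewer cells that make a transcript and less transcript per cell cannot be told apart. Lama2 is made by muscle fibres, by Schwann cells and by cells of the connective tissue. The fibroblast markers had summed signals of 45873 to 58043 in dystrophic and 31265 to 37830 in normal pools, higher with no overlap. Taken singly, Thy1, Col1a1, Col3a1, Dcn, Dpt and Fbln1 overlapped between the groups, and Thy1 lay below 0, at -0.27 on the log2 scale. Of the 12 markers, 5 were called higher, against 0.597% of all genes tested. That count was 2 without dystrophic replicate 2, 3 or 4, and 3 without normal replicate 2 or 3. The Schwann cell markers on the array, 9 in number, summed to 4472 to 4987 in dystrophic and 3778 to 4183 in normal pools, again with no overlap, but most of that sum was Pmp22, a myelin gene, which averaged 2629 ± 209.8 in dystrophic and 2128 ± 101 in normal pools (SD, n = 4 each). limma called 0 of the 6 tested Schwann cell markers, whose median log2 difference was 0.07, with Pmp22 the 1 at an unadjusted p under 0.05. Of the 6, 4 lay above 0: Mbp at 0.40, Pmp22 at 0.30, Erbb3 at 0.13 and Mag at 0.02. Sox10, a factor that defines these cells, lay at -0.02 and Gfap at -0.22. The part of these cells in the Lama2 difference was not tested.

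**Figure D1:**
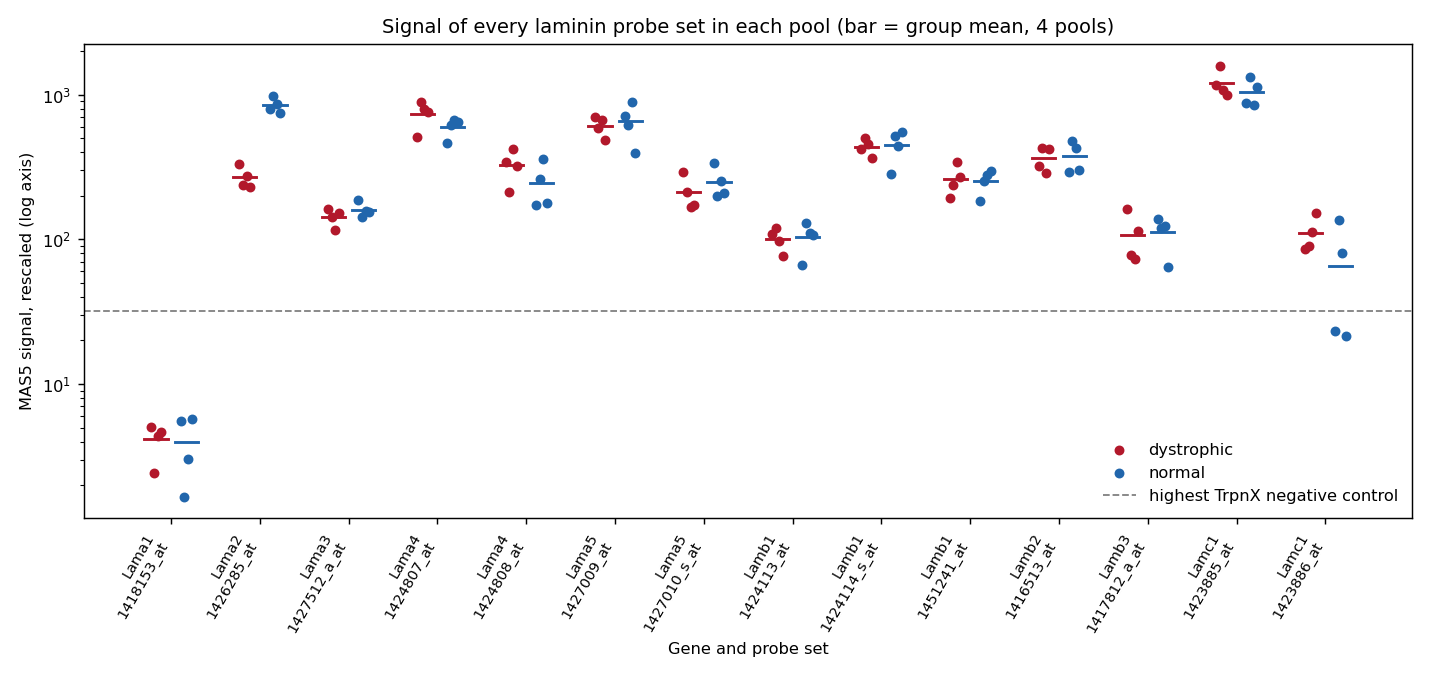
MAS5 signal (log axis) of each of the 14 laminin probe sets in 4 dystrophic (red, left) and 4 normal (blue, right) pools, with a bar at each group mean and a dashed line at the highest negative control, 32.2. The groups separate for Lama2, at 232 to 333 in dystrophic and 749 to 982 in normal pools, and overlap for the other 13 probe sets, and Lama1 lies below the line on all 8 arrays.

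The other chains overlapped between the groups. Of the 14 laminin probe sets 10 were bright enough to be tested, covering 7 genes, and the 4 others were too dim: those of Lama1 and Lamb3, 1 of the 3 of Lamb1 and 1 of the 2 of Lamc1. Beside Lama2, limma called 0 of the other 9 tested, 0 had an unadjusted p under 0.05, and 0 of the other 13 probe sets had groups that did not overlap. Over all probe sets tested, 0.457% were called higher and 0.0368% lower, and 2.53% were lower in every dystrophic pool than in any normal pool. The share that was higher in every dystrophic pool was not counted, so the overlap count has a background in the lower direction only. Its 13 probe sets also include the 4 too dim to be tested. At these shares of calls, counts of 0 in a set this small do not set the other chains apart. Of the 9 tested beside Lama2, 4 lay above 0 and 5 below, with a median log2 difference of -0.01, as was the median over all probe sets tested. Their differences ran from -0.23 to 0.42. A p above the threshold does not show that a chain did not change, and the 95% intervals say what change the 4 pools per group leave possible: the lowest bound among the 9 was -0.70 and the highest 0.98, or 1.97-fold. Without dystrophic replicate 3, limma called 0 of the 9, and their differences ran from -0.14 for Lama5 1427010_s_at to 0.28 for Lama4 1424808_at, with 2 of opposite sign to the full set, Lamb1 1451241_at at -0.097 and Lamb2 at 0.081. None of the 9 intervals over all 8 arrays reached a doubling, and none overlapped that of Lama2.

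**Figure D2:**
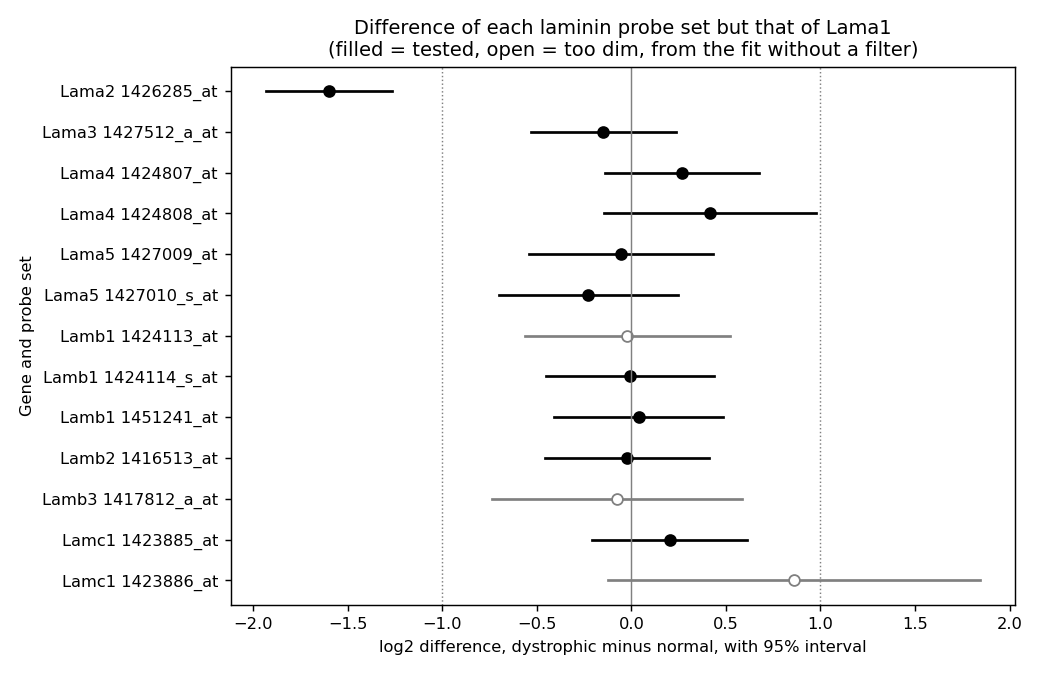
Log2 difference, dystrophic minus normal, with its 95% interval from limma, of 13 laminin probe sets, leaving out Lama1, which was not above the negative controls, where filled points were tested and open points were too dim and come from the fit without a filter. Dotted lines mark a change of 2-fold, and among the filled points only Lama2, at -1.60, has an interval that leaves out 0.

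Among the α chains, Lama4 had the highest values relative to normal. Its probe set 1424807_at read 510.4, 887, 798 and 756 in dystrophic replicates 1 to 4 and 466, 623, 674 and 651 in normal replicates 1 to 4. Dystrophic replicates 2, 3 and 4 lay above all normal pools, and dystrophic replicate 1 lay above normal replicate 1 alone. The means were 738 ± 161 and 604 ± 93.8 in dystrophic and normal pools (SD, n = 4 each), a log2 difference of 0.27 (SE 0.19, 95% interval -0.14 to 0.68, limma adjusted p = 0.701). The exact permutation test gave p = 0.257.

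The other Lama4 probe set, 1424808_at, was dimmer and more scattered. It read 346, 212, 425 and 324 in dystrophic replicates 1 to 4 and 174, 263, 360.3 and 179 in normal replicates 1 to 4. Normal replicate 3 lay above 3 of the 4 dystrophic pools, and dystrophic replicate 2 lay below normal replicates 2 and 3, so the groups overlapped. The log2 difference was 0.42 (SE 0.26, 95% interval -0.14 to 0.98, limma adjusted p = 0.652, exact permutation p = 0.229). Without dystrophic replicate 3 the differences of the 2 probe sets were 0.22 and 0.28. Lama4 is strong in capillary endothelium, and the 12 endothelial markers had summed signals of 6763 to 9239 in dystrophic and 8435 to 9662 in normal pools. Their differences had a median of -0.19 on the log2 scale, with 0 of 12 called by limma and 3, all lower, at an unadjusted p under 0.05. The 9 tested markers of regenerating fibres, which re-use genes of developing muscle, had 7 called higher, against 0.597% of all genes tested. The filter on brightness takes the mean over both groups, so a marker dim in normal pools can pass it through its dystrophic signal. Of these markers, 5 of 9 were called higher in the fit without a filter. The count was 4 of 8 tested without dystrophic replicate 3 and 3 of 8 without dystrophic replicate 4. All 10 on the array summed to 17548.7 to 20038.7 in dystrophic and 12308 to 18491 in normal pools, and without Des, the desmin gene of all muscle fibres and most of that sum, to 4964 to 7913 in dystrophic and 1685 to 1749 in normal pools, with no overlap. The part of either list in the Lama4 values was not tested.

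Lama5 encodes the α5 chain, found in vessel walls and in many epithelial basement membranes. Its probe set 1427009_at read 707, 586, 673 and 486 in dystrophic replicates 1 to 4 and 714, 619.6, 893 and 398 in normal replicates 1 to 4. The lowest and the highest values were both normal pools, replicates 4 and 3. The coefficient of variation was 16.1% in dystrophic and 31.4% in normal pools, against 17.1% and 12.0% for Lama2. The log2 difference was -0.05 (SE 0.22, 95% interval -0.54 to 0.43, limma adjusted p = 0.964). Its probe set 1427010_s_at, of a type whose probes can match more than 1 transcript, read 169 to 293 in dystrophic and 201 to 338 in normal pools, a log2 difference of -0.23 (95% interval -0.70 to 0.25, limma adjusted p = 0.798). The upper bounds of the 2 intervals are rises of 1.35-fold and 1.19-fold.

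Lama3 encodes the α3 chain of epithelial laminins, such as those that anchor the epidermis. Its signal was 162, 143, 117 and 153 in dystrophic replicates 1 to 4 and 187, 144, 158 and 154 in normal replicates 1 to 4. The groups overlapped, with a log2 difference of -0.15 (SE 0.17, 95% interval -0.53 to 0.23, limma adjusted p = 0.847).

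Lama1 encodes the α1 chain, the closest relative of α2 and prominent in the embryo. Its single probe set read 5.07, 2.44, 4.39 and 4.68 in dystrophic replicates 1 to 4 and 5.56, 1.66, 3.02 and 5.73 in normal replicates 1 to 4. On none of the 8 arrays did it exceed the highest negative control, so no fold is given, and a Lama1 transcript was not detectable above background in either group with this probe set.

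Of the chains that pair with α2, the β1 chain gave closely overlapping values. Lamb1, the β1 chain, read 419.7, 503, 459 and 368 on probe set 1424114_s_at in dystrophic replicates 1 to 4, against 283, 522, 441 and 554 in normal replicates 1 to 4. All dystrophic pools lay inside the normal range. The log2 difference was -0.01 (SE 0.20, 95% interval -0.45 to 0.44, limma adjusted p = 0.998). Its probe set 1451241_at read 194 to 345 in dystrophic and 184 to 297 in normal pools, a log2 difference of 0.04 (95% interval -0.41 to 0.48, limma adjusted p = 0.975). The dim 1424113_at read 101 ± 18.7 in dystrophic and 104 ± 26.8 in normal pools (SD, n = 4 each), a log2 difference of -0.02.

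Lamb2 encodes the β2 chain, which is concentrated at the neuromuscular junction. Its signal was 322, 429.8, 287 and 424 in dystrophic replicates 1 to 4 and 293, 476, 429 and 301 in normal replicates 1 to 4. In both groups a pair of pools was low and another pair high, and the groups overlapped. The log2 difference was -0.02 (SE 0.20, 95% interval -0.46 to 0.41, limma adjusted p = 0.985). Lamb3, the β3 chain of epithelial laminins, was too dim to be tested. It read 73.1 to 162 in dystrophic and 64.8 to 139 in normal pools, and in the fit without a filter its log2 difference was -0.08 (95% interval -0.74 to 0.59).

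Lamc1 encodes the γ1 chain, shared by most laminins. Its probe set 1423885_at read 1176, 1595, 1088 and 991 in dystrophic replicates 1 to 4 and 881, 1336, 852 and 1141 in normal replicates 1 to 4. Replicate 2 was the highest of both groups. The log2 difference was 0.20 (SE 0.19, 95% interval -0.21 to 0.61, limma adjusted p = 0.789, exact permutation p = 0.4). It was 0.064 without dystrophic replicate 2 and 0.32 without normal replicate 2.

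The second Lamc1 probe set, 1423886_at, carried the widest uncertainty of the family. It read 85.5, 90.6, 112 and 152 in dystrophic replicates 1 to 4 and 23.1, 136, 80.5 and 21.4 in normal replicates 1 to 4. Normal replicates 1, 3 and 4 lay below every dystrophic pool. Normal replicate 2 lay above dystrophic replicates 1, 2 and 3, so the groups overlapped through that pool alone. Normal replicates 1 and 4 lay below 32.2, the highest negative control of all arrays. The highest on their own arrays was 6.73 and 7.07. In the fit without a filter the log2 difference was 0.86 (SE 0.44, 95% interval -0.12 to 1.84, limma adjusted p = 0.688). Taken as the mean of both probe sets the Lamc1 difference was 0.53, against 0.20 for the brighter one, so the dim probe set sets most of that value.

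Poly-A spike-ins, added to RNA before labelling, put the arrays at 3 levels: the highest held the pools numbered 1, the middle those numbered 3, and the lowest those numbered 2 and 4, so each level had as many dystrophic as normal pools. Lama2 was lower at all 3 levels, by log2 differences of -1.21, -1.59 and -1.80. Lama4 was above 0 at all 3, at 0.13, 0.24 and 0.35 on 1424807_at and at 0.93, 0.23 and 0.26 on 1424808_at, and Lamc1 1423885_at at 0.41, 0.35 and 0.03. With the spike-in level as a block, neither Lama4 probe set passed the test (limma adjusted p = 0.354 and 0.414). The Lamb2 difference was 0.13, -0.55 and 0.16, so it changed sign between levels. That of Lama5 1427009_at was -0.01, -0.40 and 0.10. The levels with 1 array per group allow no test.

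**Figure D3:**
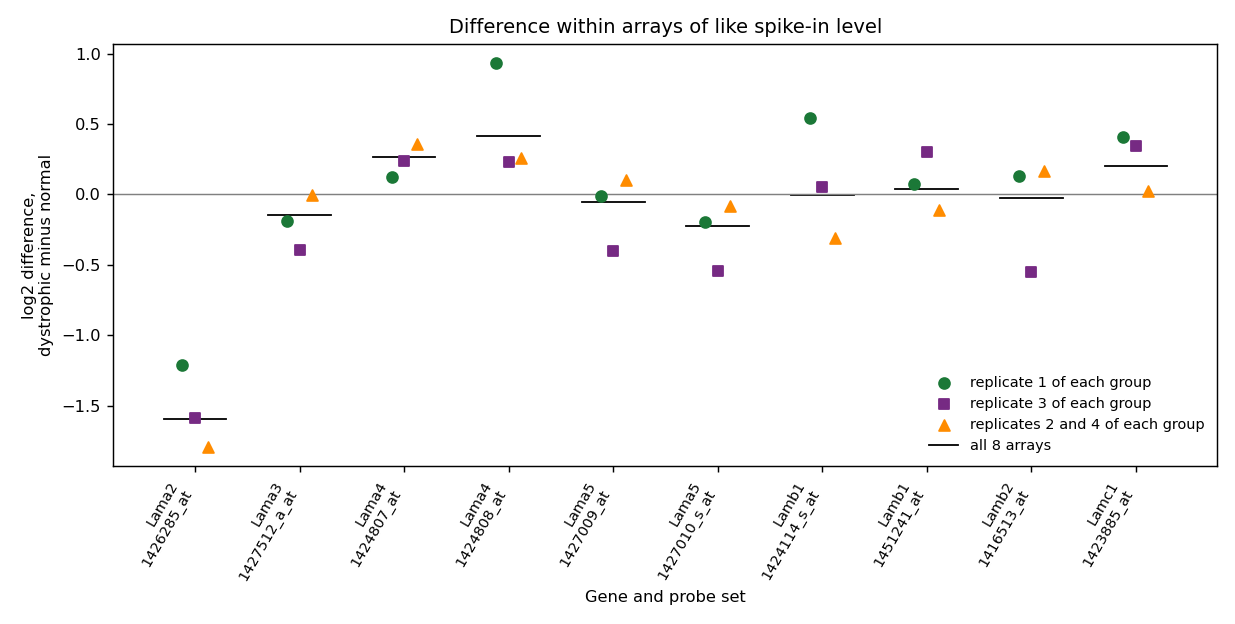
Log2 difference, dystrophic minus normal, of the 10 tested laminin probe sets within arrays of like spike-in level (points) and over all 8 arrays (black bars). All points of Lama2 lie at or below -1.21, those of both Lama4 probe sets lie above 0, and those of Lamb2 fall on both sides of 0.

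The change of each chain was also set against that of Lama2 on the same array, by subtracting the Lama2 log2 value. All 9 other tested probe sets were higher relative to Lama2 in every dystrophic pool than in any normal pool, by 1.37 on the log2 scale for Lama5 1427010_s_at up to 2.01 for Lama4 1424808_at. For 1424807_at of Lama4 the value was 1.87. After this subtraction the groups did not overlap, in either direction, for 96.7% of all probe sets tested. The separation therefore describes the fall of Lama2 and is not a result about the other chains.

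A search over 8213 other genes listed the 5 whose profile over the 8 arrays lay nearest to that of Lama2, by the root mean square difference of mean-centred log2 values. They were Asb15 at 0.35, Grb14 at 0.42, Slc41a3 at 0.45 and Cryba4 and Magix at 0.49 each. A flat profile would lie at 0.82. Because Lama2 itself was lower in every dystrophic pool, the search picks genes that were lower there too. Their direction and low p are therefore built into the choice and are no separate result. Asb15, of a family of ubiquitin ligase adaptors, read 314 to 434 in dystrophic and 574 to 961 in normal pools, and Grb14, an adaptor that binds the insulin receptor, 515 to 798 and 1137 to 2426. Slc41a3, of a family of magnesium transporters, read 980.2 to 1488 in dystrophic and 1908 to 2741 in normal pools. These 3 fell past the threshold (limma adjusted p = 0.0290, 0.0250 and 0.0361), but each held its call in only 1 of the 8 fits that left out an array, with limma adjusted p up to 0.132, 0.0935 and 0.137 in the others. Cryba4, a lens crystallin gene, and Magix did not pass (limma adjusted p = 0.126 and 0.182).

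The genes around the laminins were taken as lists. Over all 8214 genes tested 0.597% were called higher and 0.0487% lower, with a median log2 difference of -0.01, and the laminin chains themselves had 0 of 7 genes higher and 1 lower. Lamc3, the γ3 chain, is the one other laminin gene with a tested probe set, and it lay at 0.04 (SE 0.18, limma adjusted p = 0.969).

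The laminin receptors, integrins, dystroglycan and further surface proteins that bind laminin, had 14 tested genes, of which limma called 0, and their median was -0.02 on the log2 scale. The brightest were Rpsa, a ribosomal protein also described as a laminin receptor, at 0.18 (SE 0.13), and Dag1, dystroglycan, at -0.13 (SE 0.15). Sdc1, the heparan sulfate proteoglycan syndecan 1, was the 1 member with an unadjusted p under 0.05, at 0.59 (SE 0.20, limma adjusted p = 0.301). Sdc1 read 287 ± 70.8 in dystrophic and 183 ± 31.4 in normal pools (SD, n = 4 each).

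The dystrophin complex, which joins dystroglycan to the cytoskeleton, had 0 of 9 tested genes called by limma, with a median of 0.01. Sspn, sarcospan, lay at -0.11 (SE 0.16) and Sgca, α-sarcoglycan, at 0.25 (SE 0.13), and neither passed. Cav3, the muscle caveolin, was the 1 member with an unadjusted p under 0.05, at 0.40 (SE 0.11, limma adjusted p = 0.200). Among enzymes that build the laminin-binding sugar of dystroglycan, limma called 0 of 6, with a median of -0.00. Rxylt1 lay at -0.27 (SE 0.14) and Pomgnt1 at -0.04 (SE 0.15), and B3galnt2, the 1 member with an unadjusted p under 0.05, at -0.68 (SE 0.22, limma adjusted p = 0.291). Sdc1, Cav3 and B3galnt2 were named after their values had been seen.

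The basement membrane partners and neighbouring matrix genes had 2 of 24 tested genes that rose, 0 that fell and 22 that did not pass. Over all genes tested, 0.597% were called higher and 0.0487% lower. The median log2 difference of the list was 0.22, and 20 of the 24 lay above 0, against 3982 of all 8214 genes tested. Of the 24, 10 were higher at an unadjusted p under 0.05 and 0 lower. The 2 called were Thbs4, thrombospondin 4, at 1.81 (SE 0.14, limma adjusted p = 1.52e-04), and Col6a3, a chain of collagen VI, at 0.79 (SE 0.12, limma adjusted p = 0.0146). Both are proteins of the matrix between fibres more than of the basement membrane itself, and none of the nidogens, perlecan, agrin or the collagen IV chains among the tested genes passed. Thbs4 read 3830 ± 465 in dystrophic and 1083 ± 148 in normal pools (SD, n = 4 each), and Col6a3 2423 ± 239.9 and 1388 ± 84.5. Col6a3 lost its call without dystrophic replicate 2 or dystrophic replicate 3 (limma adjusted p up to 0.0612) and without normal replicate 4 and dystrophic replicate 3 together (0.114), which leaves Thbs4 as the 1 call in the list. With array weights or with the spike-in level as a block, 4 of the 24 were called higher. The summed signal of the fibroblast markers was higher in every dystrophic pool than in any normal pool, as given above. That of the macrophage markers was 12802 to 15471 in dystrophic and 7207 to 9854 in normal pools. The part of either list in these genes was not tested.

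**Figure D4:**
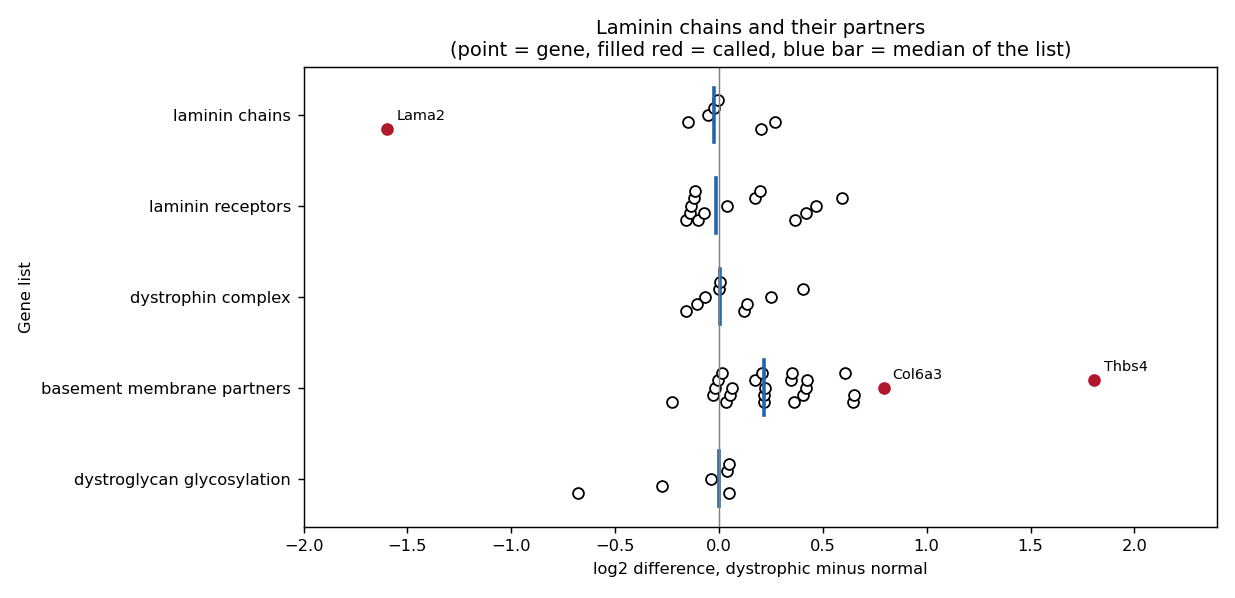
Log2 difference, dystrophic minus normal, of each tested gene of the laminin chains and of 4 lists of partner genes, with called genes filled in red and named and the median of each list as a blue bar. Lama2 is the 1 called gene among the chains, at -1.60, and Thbs4 and Col6a3 are the 2 called among the basement membrane partners.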

How the data were processed

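The authors deposited 1 table of MAS5 signal intensity on a linear scale for 22690 probe sets, 64 of them controls, and MAS5 is named per the submitters' processing notes. For its version, scan dates and detection calls, nothing is given in the sources used here. Normal replicate 4 had a trimmed mean (2% at each end) of 400.2, against 500.2 for the other 7 arrays, and all were brought to 487.7. The comparison used R 4.3.3 and limma 3.58.1 (lmFit, eBayes with an intensity trend) on log2(signal + 16), without controls and the lowest 40% by mean, which left 13575 probe sets, with Benjamini-Hochberg adjustment over all of them. Precision is limited by having only 4 arrays in each group.

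The platform annotation gave 1 symbol to 20380 probe sets, several to 691 and none to 1555, leaving the controls aside. Probe sets with several symbols were not used, and none of them named a member. Symbols were updated by Entrez identifier through a RefSeq table (GRCm38.p6), in which 20351 matched. In lists, a gene's brightest probe set stood for it.

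The members and lists were chosen with earlier results of these data known. The text names every laminin probe set, called genes of each list or else its 2 brightest, and the 5 genes nearest to Lama2. Des and the fibroblast and Schwann cell markers named singly were outside that rule. The fit was tested on simulated data. The marker sum without Des was added after the data had been seen. Plots used Python 3.11.15 and matplotlib 3.10.9. Alternatives covered the offset, normalization, filter, fit, blocks and arrays left out.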

Additional observations from a re-analysis of the deposited data

How the results depend on the processing

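Under every alternative run, Lama2 was the 1 laminin probe set called, at log2 differences of -1.72 (array weights) to -1.45 (offset of 64), and limma adjusted p of at most 0.0127, reached without normal replicate 4 and dystrophic replicate 3 together. Leaving out each array in turn gave -1.70 to -1.52. No other laminin probe set was called under any alternative that tested it, and both Lama4 probe sets and Lamc1 1423885_at stayed above 0 in all. With single arrays left out, Lama4 1424807_at ran from 0.15 to 0.43, Lama4 1424808_at from 0.28 to 0.61, Lamc1 1423885_at from 0.064 to 0.32, Lama3 from -0.20 to -0.063 and Lama5 1427010_s_at from -0.39 to -0.081. Chains near 0 changed sign. With the values as deposited, Lama5 1427009_at was at 0.024, Lamb1 1424114_s_at at 0.073, Lamb2 at 0.053 and Pomgnt1 at 0.040. With single arrays left out, Lama5 1427009_at ran from -0.27 to 0.11, Lamb1 1424114_s_at from -0.20 to 0.11, Lamb1 1451241_at from -0.10 to 0.16, Lamb2 from -0.13 to 0.10, Lamc3 from -0.016 to 0.15, Sspn from -0.22 to 0.031 and Pomgnt1 from -0.14 to 0.027. Without normal replicate 4 and dystrophic replicate 3 together, Lamb1 1424114_s_at was at 0.080, Lamb1 1451241_at at -0.019, Dag1 at 0.042 and Sspn at 0.018, and Lamc3 was at -0.014 under quantile normalization. Over all probe sets, 62 were called higher and 5 lower. The counts were 114 and 13 with array weights, 101 and 13 with the spike-in level as a block, 23 and 1 at a threshold of 0.01, and 29 and 2 without normal replicate 4 and dystrophic replicate 3. Single arrays left out gave 23 to 57 higher and 1 to 5 lower. Without a filter 1 was called lower, and without an intensity trend 3. The deviations of same-numbered pools had correlations across probe sets of 0.48, -0.05, 0.145 and 0.133 for replicates 1 to 4. Pools of different number had -0.25 to 0.16, so only the pools numbered 1 lay above that range. The labels do not say that the numbers pair the pools, so the main fit left them unpaired. With the replicate number as a block, 93 probe sets were called higher and 12 lower, and Lama2 kept its call (limma adjusted p = 0.00579). The cause of these changes was not tested.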
